A study of Mus musculus with 9 samples.

Results

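The genes described here are 34 rod and shared photoreceptor genes, chosen by name from a list of phototransduction, outer segment and transcription factor genes, out of 16367 genes in the table of sorted cells and 17035 in the table of cultured cells. All 34 were listed for the sorted cells and all 34 passed the filter on low values, while 27 were listed for the cultures. The cells came from WT (wild-type) mouse retina and were prepared as Müller glia, the radial glia of the retina, so photoreceptor transcripts are not those of the intended cell type. The sorted cells formed 2 groups of 3 libraries, each library made from a pool of 4 neural retinas without their pigment epithelium: sham animals had a corneal incision and no oil, and ocular hypertension (OHT) animals had 1.2 µL of silicone oil put into the anterior chamber of each eye. Retinas were dissociated with papain, depleted of dead cells and captured on magnetic beads through GLAST, a glutamate transporter that astrocytes also display. The third group was 3 untreated primary cultures from C57BL/6J pups 8 to 10 days after birth. The labels do not state the age or strain of the operated mice, or the time between surgery and sorting.

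Rods are the photoreceptors of dim light. In their outer segment, light-activated opsin switches on the G protein transducin, transducin switches on the phosphodiesterase PDE6, the fall of cGMP closes a cation channel, and a set of kinases, arrestin, calcium sensors and GTPase activators ends the response. The transcription factors CRX and NRL drive this gene set, NR2E3 acts with them to keep rods from a cone programme, and rods outnumber every other neuron of the mouse retina.

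Upstream sequences are shown first, for 5 members of different roles whose promoter holds the core letters of a CRX site, chosen after their values were seen. RefSeq (build GRCm38.p6) gave sequence for 26 of the 34 genes. In the 250 bases before the start site, on either strand, TAATCC (the core letters of CRX sites) was found for 11 of the 26 genes (42.3%), against 7.21% of 27025 genes, and TGCTGA (the core letters of NRL sites) for 8 (30.8%), against 18.0%. Both were found for 5 (19.2%), against 1.37% of all genes, and the 2 motifs cannot share a base. In Sag, Rbp3 and Aipl1 both lay before the same start site, but in Mpp4 and Unc119 they lay before different start sites. A gene with several start sites was counted once if any of its windows held the letters. The following 200 bases end at the base before the start site, read 5′ to 3′ along the gene, with matches to either motif in capitals.
Crx, chr7:15879956-15880155, minus strand: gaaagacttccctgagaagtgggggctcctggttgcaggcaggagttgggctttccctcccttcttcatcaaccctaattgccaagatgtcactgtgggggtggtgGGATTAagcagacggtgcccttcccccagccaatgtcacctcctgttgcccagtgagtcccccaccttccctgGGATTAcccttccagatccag
Sag, chr1:87803480-87803679, plus strand: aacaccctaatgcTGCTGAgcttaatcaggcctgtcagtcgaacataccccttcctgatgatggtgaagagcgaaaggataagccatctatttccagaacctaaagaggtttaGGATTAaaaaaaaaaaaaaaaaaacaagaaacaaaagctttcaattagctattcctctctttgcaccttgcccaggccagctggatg
Rbp3, chr14:33953803-33954002, plus strand: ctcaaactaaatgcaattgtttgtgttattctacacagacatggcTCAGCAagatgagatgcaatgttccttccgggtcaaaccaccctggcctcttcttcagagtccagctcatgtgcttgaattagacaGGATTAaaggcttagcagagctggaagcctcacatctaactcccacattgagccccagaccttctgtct
Aipl1, chr11:72037510-72037709, minus strand: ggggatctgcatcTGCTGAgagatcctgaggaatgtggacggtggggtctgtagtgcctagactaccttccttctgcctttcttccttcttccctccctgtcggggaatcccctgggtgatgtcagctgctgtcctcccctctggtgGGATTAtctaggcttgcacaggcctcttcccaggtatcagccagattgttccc
Guca1a, chr17:47400607-47400806, minus strand: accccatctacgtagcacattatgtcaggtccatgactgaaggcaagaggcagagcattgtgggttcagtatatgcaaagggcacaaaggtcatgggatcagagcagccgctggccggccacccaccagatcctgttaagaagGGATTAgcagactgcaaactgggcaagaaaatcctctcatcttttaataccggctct
Crx itself holds 2 CRX matches, at positions -94 and -21 counted from the start site. The CRX match lies at -87 in Sag, -69 in Rbp3, -53 in Aipl1 and -57 in Guca1a, all as GGATTA on the gene's own strand, and an NRL match lies at -187 in Sag, -155 in Rbp3 and -187 in Aipl1. The log2 difference between OHT and sham had a median of -2.15 in the members with a CRX match and -2.21 in those without. The medians were -2.36 and -2.19 for the NRL letters, and -2.95 and -2.17 for both motifs, before the same or different start sites. These medians are described with no test, and a match is a description of the sequence and not of binding.

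Levels are given as normalised read counts, each a gene's reads divided by 1 factor for its library and not by gene length, so they are compared between libraries and not between genes. Recovered depth was 37822145 to 44472124 reads per sham library, 47135569 to 53592052 reads per OHT library and 66309309 to 76745389 reads per culture. The 11 Müller glia markers were all above 0 in every sorted library, at 3641 to 8988 ppm (reads in 1000000 of the library's reads) in sham and 1964 to 4181 ppm in OHT. The 11 microglia markers summed to 23932 to 37440 ppm in sham and 28762 to 39772 ppm in OHT, more than the Müller glia markers in each sorted library. Mitochondrially encoded genes took 14.1% to 19.6% of sham reads and 2.195% to 6.13% of OHT reads. Nothing in the labels says that libraries of a group came from separate cohorts of mice, so p-values measure only the spread between these pools.

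Photoreceptor transcripts were present in all 6 sorted libraries, and the sham libraries disagreed about how much. The 34 genes together took 0.284% of the reads of sham replicate 1, 1.90% of replicate 2 and 1.79% of replicate 3, and 0.139%, 0.128% and 0.430% in OHT replicates 1, 2 and 3. Sham replicate 1 therefore lay inside the OHT range, while sham replicates 2 and 3 lay above every OHT library. The group means were 1.33% ± 0.904 in sham and 0.232% ± 0.171 in OHT (SD, n = 3 each), a log2 ratio of -2.51, which was -2.99 without sham replicate 1. Without Gnb1, which most other cells also use, the shares were 0.233%, 1.69% and 1.57% in sham and 0.0935%, 0.104% and 0.350% in OHT. Sham replicate 1 was still inside the OHT range, but OHT replicates 1 and 2 changed order. In bulk samples fewer rods and less RNA per rod cannot be told apart.

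**Figure D1:**
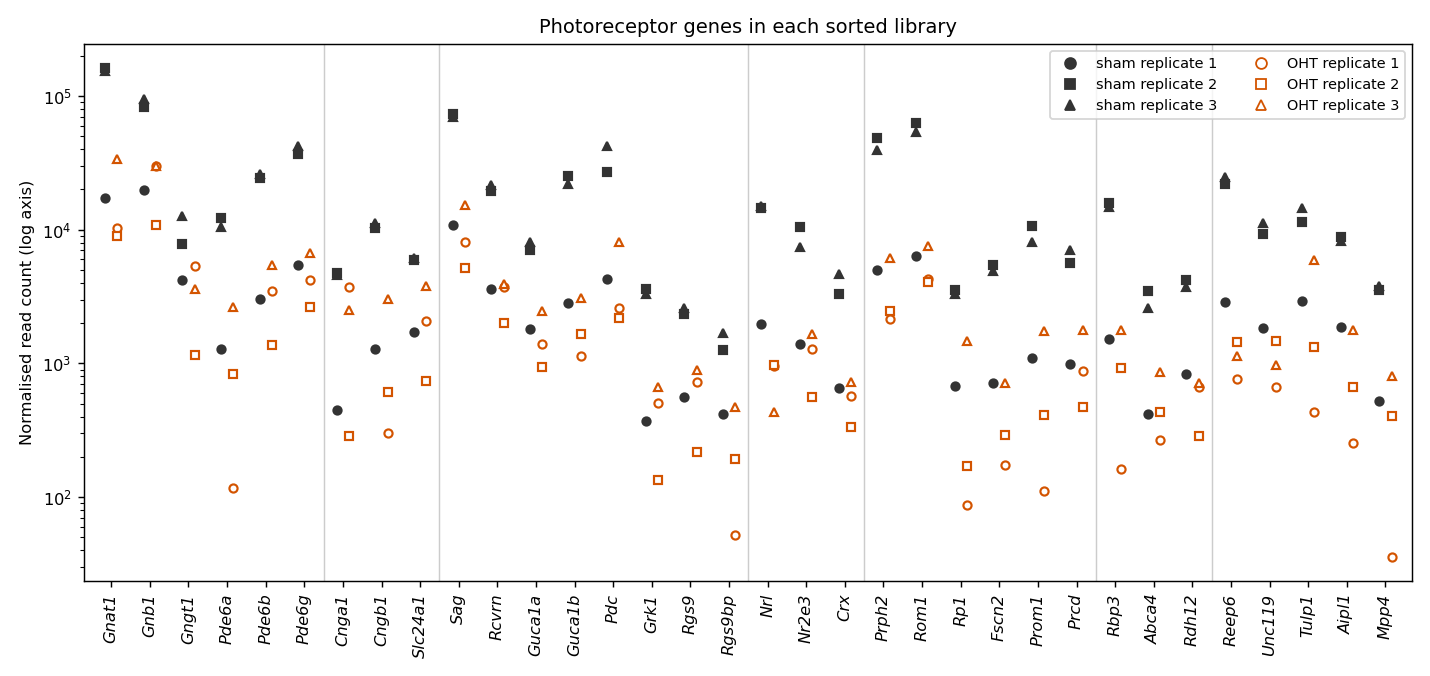
Normalised read count (log axis) of each of the 34 genes in the 3 sham (filled) and 3 OHT (open) libraries, with vertical lines between functional groups. For most genes sham replicates 2 and 3 stand together at the top, and sham replicate 1 lies among the OHT libraries.

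Every one of the 34 genes had a lower mean log2 level in OHT than in sham, with log2 differences (OHT minus sham, on log2(value + 1)) from -3.45 to -0.62 and a median of -2.32, against a median of -0.12 over the 14403 genes tested. No gene passed the adjusted threshold: limma called 0 of 34 at an adjusted p under 0.05, and 0 of all genes (0%), with adjusted p from 0.332 to 0.804 for the members. At an unadjusted p under 0.05 limma had 31 of 34 members lower, against 6.3% of all genes tested. A log2 difference of -1 or less was seen in 33 of 34 members and in 22.3% of all genes. The groups were free of overlap, with all 3 OHT libraries below all 3 sham libraries, in 6 of 34 members, against 9.18% of all genes. These 6 were Nrl, Fscn2, Rdh12, Reep6, Unc119 and Aipl1. In 20 further members the 2 lowest OHT libraries lay below the lowest sham library, and in the other 8 members 1 OHT library did.

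The call depended on the tool and on sham replicate 1. On the recovered reads, the quasi-likelihood test of edgeR called 0 members and 0% of genes, with an unadjusted p from 0.000263 to 0.461 for the members. DESeq2 called 20 members, all lower in OHT, against 1.41% of the genes to which it gave an adjusted p (33 of the members had one, all but Rp1). Without sham replicate 1 the limma fit called 7 members, all lower, out of 12 genes called in all, which is 0.0834% of those tested. These 7 were Reep6, Nrl, Rom1, Guca1b, Prph2, Pde6g and Unc119. The median log2 difference of the 34 genes was then -3.24.

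**Figure D2:**
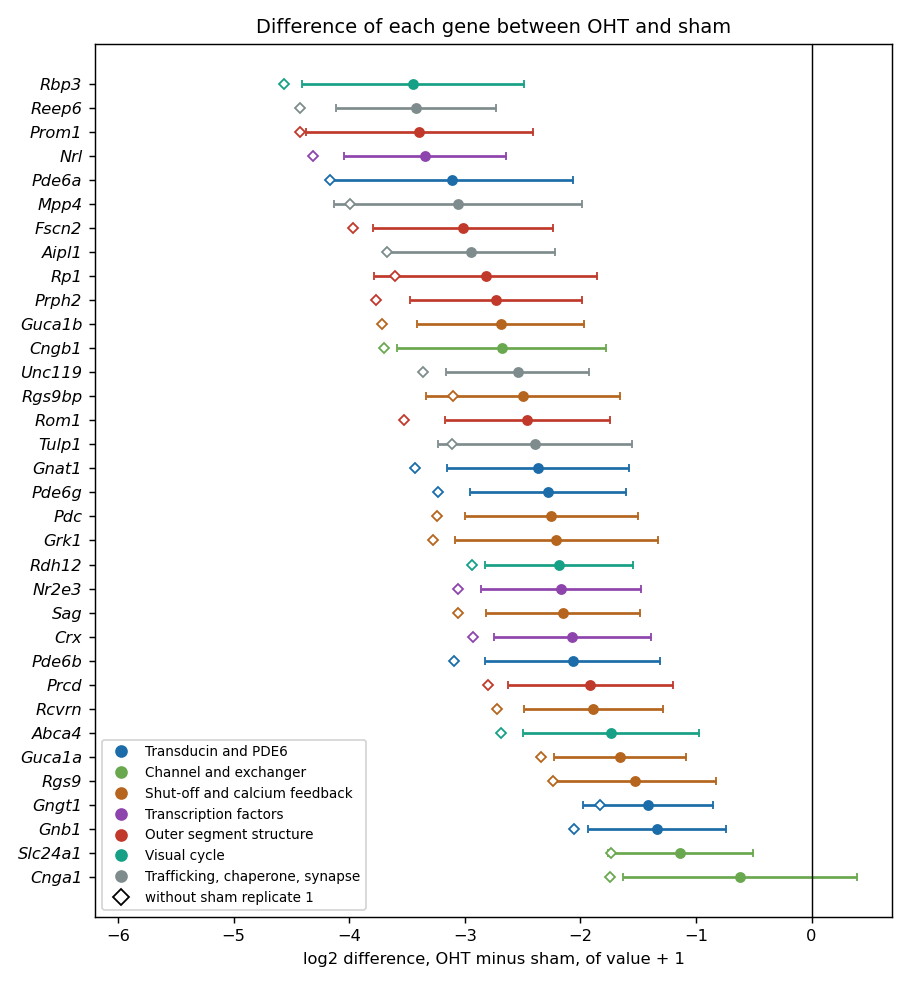
Log2 difference between OHT and sham of each gene (filled circles, bars are the standard error from limma), coloured by functional group, and the same difference without sham replicate 1 (open diamonds). All 34 circles lie below 0, from Rbp3 at -3.45 to Cnga1 at -0.62.

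Transducin and PDE6, which carry the light signal forward, had 6 of 6 members lower, 0 past limma's adjusted threshold and 3 called by DESeq2, with a median log2 difference of -2.18. Gnat1, the rod transducin alpha subunit, was at 17232, 160879 and 154094 in sham replicates 1, 2 and 3 and at 10370, 8930 and 33574 in OHT replicates 1, 2 and 3. OHT replicate 3 was above sham replicate 1, so the groups overlapped, and the difference on the log2 scale was -2.37 (SE 0.79, limma adjusted p 0.343). Pde6g, the inhibitory gamma subunit of PDE6, was at 5472, 36550 and 42414 in sham and 4203, 2620 and 6690 in OHT, a log2 difference of -2.28 (SE 0.67, limma adjusted p 0.332). Its OHT libraries were low and close together, and only OHT replicate 3 passed sham replicate 1.

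The 2 catalytic subunits of PDE6 differed in OHT replicate 1. Pde6a was at 1285, 12309 and 10519 in sham and 116, 830 and 2632 in OHT, a difference of -3.12 (SE 1.05, limma adjusted p 0.343). Pde6b was at 3009, 24565 and 26106 in sham and 3494, 1368 and 5475 in OHT, a difference of -2.07 (SE 0.76, limma adjusted p 0.365). The log2 ratio of Pde6a to Pde6b was -1.31 to -0.997 in the sham libraries, -0.72 and -1.06 in OHT replicates 2 and 3, and -4.90 in OHT replicate 1. Gngt1, the rod transducin gamma subunit, had a smaller log2 difference of -1.42 (SE 0.56), and was at 4223 to 12628 in sham and 1157 to 5331 in OHT. Gnb1, a G protein beta subunit used by rods and by most other cells, was at 19933, 83319 and 94865 in sham and 29872, 10841 and 30018 in OHT, so that 2 OHT libraries lay above sham replicate 1. Its log2 difference was -1.34 (SE 0.60, limma adjusted p 0.422).

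The cGMP-gated channel and the cation exchanger stood nearest to 0, with a median log2 difference of -1.14 over 3 genes, 0 of them past limma's adjusted threshold and 0 called by DESeq2. Cnga1, the channel's alpha subunit, was at 449, 4782 and 4587 in sham and 3753, 287 and 2518 in OHT, which gave the smallest difference of the 34, -0.62 (SE 1.02, limma adjusted p 0.804). OHT replicates 1 and 3 lay well above sham replicate 1, and without OHT replicate 2 the difference was positive, at 0.52. Cngb1, the beta subunit of the same channel, was at 1290, 10255 and 11186 in sham and 301, 612 and 3028 in OHT, a difference of -2.68 (SE 0.90, limma adjusted p 0.343). The log2 ratio of Cnga1 to Cngb1 was -1.52 to -1.10 in sham, -1.09 in OHT replicate 2, -0.27 in OHT replicate 3 and 3.64 in OHT replicate 1. Slc24a1, the exchanger that removes calcium from the rod outer segment, was at 1730, 5908 and 6092 in sham and 2081, 741 and 3799 in OHT (-1.14, SE 0.63, limma adjusted p 0.493).

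Genes that end the response and adjust it to calcium had 8 of 8 members lower, 0 past limma's adjusted threshold and 5 called by DESeq2, with a median of -2.18. Sag, rod arrestin, was at 10865, 73312 and 69688 in sham and 8025, 5142 and 15281 in OHT (-2.15, SE 0.67, limma adjusted p 0.332). Guca1b, one of the calcium sensors of retinal guanylate cyclase, was at 2809, 25100 and 22097 in sham and 1143, 1647 and 3067 in OHT (-2.69, SE 0.72, limma adjusted p 0.332, and 0.0179 without sham replicate 1). Only OHT replicate 3 reached the level of sham replicate 1. Guca1a, the other sensor, was at 1807, 6998 and 8026 in sham and 1386, 947 and 2479 in OHT, a smaller difference of -1.65 (SE 0.57).

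The other members of this group also overlapped between sham and OHT, and in Rcvrn, Grk1 and Rgs9 2 OHT libraries lay above sham replicate 1. Recoverin, Rcvrn, a calcium sensor that restrains the opsin kinase, was at 3600 to 21476 in sham and 2020 to 3947 in OHT, with a difference of -1.89. Grk1, that kinase, was at 374 to 3627 and 134 to 662 (-2.21). Pdc, phosducin, which binds the beta and gamma subunits of transducin, was at 4300 to 42367 and 2195 to 8033 (-2.25). Rgs9, which speeds the shut-off of transducin, was at 560 to 2618 and 219 to 895 (-1.53), and its membrane anchor Rgs9bp at 415 to 1686 and 52.5 to 470 (-2.50). In OHT replicate 1 these partners parted, with a log2 ratio of Rgs9 to Rgs9bp of 3.77 against 0.43 to 0.89 in sham.

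All 3 transcription factors were lower in OHT by their mean log2 level, 0 past limma's adjusted threshold and 3 called by DESeq2, with a median of -2.17. Nrl, which specifies rods, was at 1964, 14475 and 14946 in sham and 962, 976 and 432 in OHT. All 3 OHT libraries were below all 3 sham libraries, and the difference on the log2 scale was -3.34 (SE 0.70, limma adjusted p 0.332, DESeq2 adjusted p 9.254e-06). Nr2e3, which represses cone genes in rods, was at 1390, 10547 and 7362 in sham and 1288, 557 and 1652 in OHT (-2.17, SE 0.69), and Crx, shared by rods and cones, was at 655, 3311 and 4690 in sham and 569, 333 and 722 in OHT (-2.07, SE 0.68). OHT replicate 3, which held the most photoreceptor RNA of the OHT group, had the lowest Nrl of all 6 libraries. The log2 ratio of Nrl to Nr2e3 was 0.46 to 1.02 in sham, -0.42 and 0.81 in OHT replicates 1 and 2, and -1.93 in OHT replicate 3.

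Outer segment structure genes had 6 of 6 members lower, 0 past limma's adjusted threshold and 4 called by DESeq2, with a median of -2.77. Prph2, peripherin, a tetraspanin of the disc rim, was at 4961, 48326 and 39301 in sham and 2132, 2466 and 6157 in OHT (-2.73, SE 0.74, limma adjusted p 0.332). Its partner Rom1 was at 6386, 62733 and 54140 in sham and 4272, 4071 and 7490 in OHT (-2.46, SE 0.71, limma adjusted p 0.332). The log2 ratio of Prph2 to Rom1 was -0.46 to -0.36 in sham, and -1.002, -0.72 and -0.28 in OHT replicates 1, 2 and 3, so the first 2 lay below the sham range and the last above it.

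Prom1, prominin, needed for disc formation and made by other epithelia too, was at 1092, 10622 and 8148 in sham and 112, 412 and 1739 in OHT (-3.40, SE 0.98). Fscn2, an actin-bundling protein of photoreceptors, was at 716, 5478 and 4930 in sham and 174, 291 and 716 in OHT (-3.02, SE 0.78). Its groups were free of overlap by a small margin, 715.9 in sham replicate 1 against 715.6 in OHT replicate 3. Rp1, a microtubule-associated protein of the outer segment, was at 672 to 3534 in sham and 87.0 to 1476 in OHT (-2.82), and Prcd, a small disc protein, at 991 to 7017 and 469 to 1764 (-1.91). Prcd exons overlap those of Cygb on the other strand in the GENCODE M21 annotation, and no strand-specific counting is stated. Cygb was at means of 149 in sham and 68.2 in OHT.

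The 3 visual cycle genes were all lower in OHT, 0 past limma's adjusted threshold and 2 called by DESeq2, with a median of -2.19. Rbp3, the retinoid-binding protein that photoreceptors secrete into the space beside the pigment epithelium, had a log2 difference of -3.45 (SE 0.96, limma adjusted p 0.332, and 0.0464 with a replicate block). It was at 1512, 15835 and 14792 in sham and 162, 930 and 1791 in OHT, and OHT replicate 3 lay above sham replicate 1. This was the most negative difference of the 34 in the limma fit, but Reep6 was more negative with DESeq2, at -3.88 against -3.48 for Rbp3. Rdh12, a retinal-reducing enzyme of the inner segment, was at 829, 4180 and 3712 in sham and 667, 285 and 716 in OHT, without overlap (-2.19, SE 0.64, limma adjusted p 0.332). Abca4, the transporter that clears retinoids from discs, was at 415, 3503 and 2585 in sham and 269, 436 and 862 in OHT (-1.74, SE 0.76, limma adjusted p 0.417).

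Trafficking, chaperone and synaptic genes had a median of -2.95 over 5 genes, all lower, with 0 past limma's adjusted threshold and 3 called by DESeq2. This was more negative than the median of the outer segment genes in the limma fit, but the order was the other way with DESeq2, at -2.82 against -3.03. Groups were free of overlap in 3 of the 5, against 9.18% of all genes. Reep6, an endoplasmic reticulum protein of rods, was at 2899, 21878 and 24830 in sham and 766, 1456 and 1140 in OHT. Even the highest OHT library lay below sham replicate 1, and the difference on the log2 scale was -3.42 (SE 0.69, limma adjusted p 0.332, DESeq2 adjusted p 2.409e-06). Unc119, a lipid-binding chaperone of transducin that other cells also make, was at 1849, 9314 and 11217 in sham and 672, 1480 and 977 in OHT (-2.54, SE 0.62, limma adjusted p 0.332). Aipl1, the chaperone that PDE6 needs, was at 1883, 8814 and 8302 in sham and 254, 664 and 1768 in OHT (-2.95, SE 0.73, limma adjusted p 0.332).

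Tulp1, which acts in transport to the outer segment, was at 2912, 11432 and 14630 in sham and 430, 1325 and 5892 in OHT, with OHT replicate 3 well above sham replicate 1 (-2.39, SE 0.84). Mpp4, a scaffold of the photoreceptor synapse, was at 520, 3535 and 3765 in sham and 35.9, 402 and 805 in OHT (-3.06, SE 1.07).

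By breadth of expression the medians were near each other. The 11 genes of rods alone had a median log2 difference of -2.28 and the 20 genes shared with cones -2.32. The 3 genes with wide expression outside photoreceptors (Gnb1, Unc119 and Prom1) had a median of -2.54. That median is the value of Unc119, and the class was spread widely, with Prom1 at -3.40 and Gnb1 at -1.34. No test was made between subgroups. The subgroup medians ran from -1.14 for the channel and exchanger to -2.95 for trafficking, chaperone and synapse, and the SD of a subgroup's median between libraries of 1 group, pooled over both groups, was 1.095 to 1.45 on the log2 scale.

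The proportions among the 34 genes varied more between OHT libraries than between sham libraries, as did those of all genes tested. Each gene's log2 level was set against the median of the 34 in its library, which removes only a change that the genes share. A member that other cells also make can have a high relative level where the others are low. Gnb1 was at 510 ppm in sham replicate 1 and 454 ppm in OHT replicate 1, but its relative level was higher in the latter. The SD of this relative level between libraries of a group had a median over genes of 0.29 in sham and 0.80 in OHT for the members, and of 0.46 and 0.90 for all genes tested. It was larger in OHT for 29 of 34 members (85.3%) and for 74.2% of all genes. Between OHT replicates 2 and 3 alone the median SD was 0.27 for the members and 0.54 for all genes. An SD over 2 libraries tends to be lower than an SD over 3, and no sham pair is given beside it. Across the 34 genes, Pearson r of log2 levels was 0.931 to 0.984 between sham libraries, 0.936 to 0.966 between OHT replicate 2 and each sham library, 0.835 to 0.866 between OHT replicate 3 and each sham library, and 0.687 to 0.759 between OHT replicate 1 and each sham library. Between OHT libraries r was 0.729 for replicates 1 and 2, 0.736 for replicates 1 and 3, and 0.844 for replicates 2 and 3. Genes are not independent replicates in these values.

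**Figure D3:**
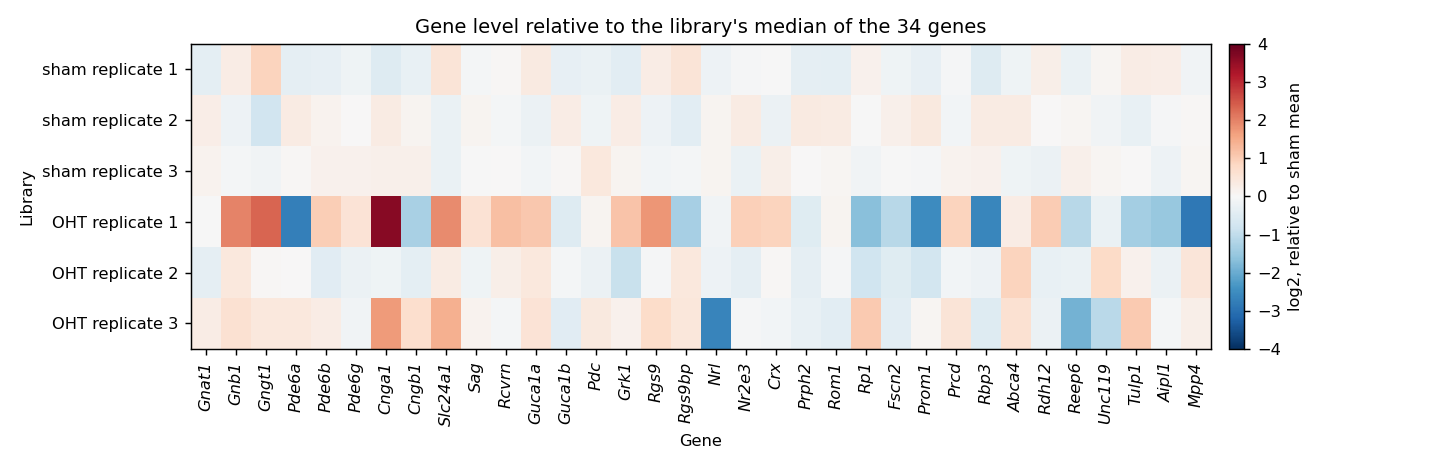
Log2 level of each gene relative to the median of the 34 genes in its library, minus the mean of that quantity over the 3 sham libraries (colour scale, red above and blue below). OHT replicate 1 departs most, from -2.86 for Mpp4 to 3.64 for Cnga1, and OHT replicate 3 stands out at Nrl with -2.65.

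Relative to the sham profile, OHT replicate 1 was low in Mpp4 (-2.86), Pde6a (-2.73), Rbp3 (-2.61) and Prom1 (-2.51), and high in Cnga1 (3.64), Gngt1 (2.34), Gnb1 (1.98) and Slc24a1 (1.90). OHT replicate 3 was low in Nrl (-2.65), Reep6 (-1.88) and Unc119 (-1.09) and high in Cnga1 (1.70) and Slc24a1 (1.41). OHT replicate 2 stayed between -0.88 (Grk1) and 0.90 (Abca4). The members summed to 1283 ppm in OHT replicate 2 and 1389 ppm in OHT replicate 1. Without Gnb1 the order was the other way, at 1037 ppm in OHT replicate 2 and 935 ppm in OHT replicate 1.

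Transcript length and GC content of the 34 genes, from GENCODE M21 (build GRCm38; the authors' build was mm39), are set beside these departures. The relative level in OHT replicate 3 had a Spearman rho of -0.49 with GC content and 0.38 with length across the 34 genes. The values in OHT replicate 1 were -0.24 and -0.26, and in OHT replicate 2 they were 0.05 and -0.15. Reep6, at 62.0% GC the richest of the members, and Unc119, at 59.7%, were among the low genes of OHT replicate 3, but Nrl was at 54.4% and Tulp1, high in that library, at 60.5%. In OHT replicate 1 the low genes Mpp4, Prom1, Pde6a and Rbp3 had transcripts of 2982 to 5295 bases, while Slc24a1, at 5213 bases, was high. The part of these properties in the departures was not tested.

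**Figure D4:**
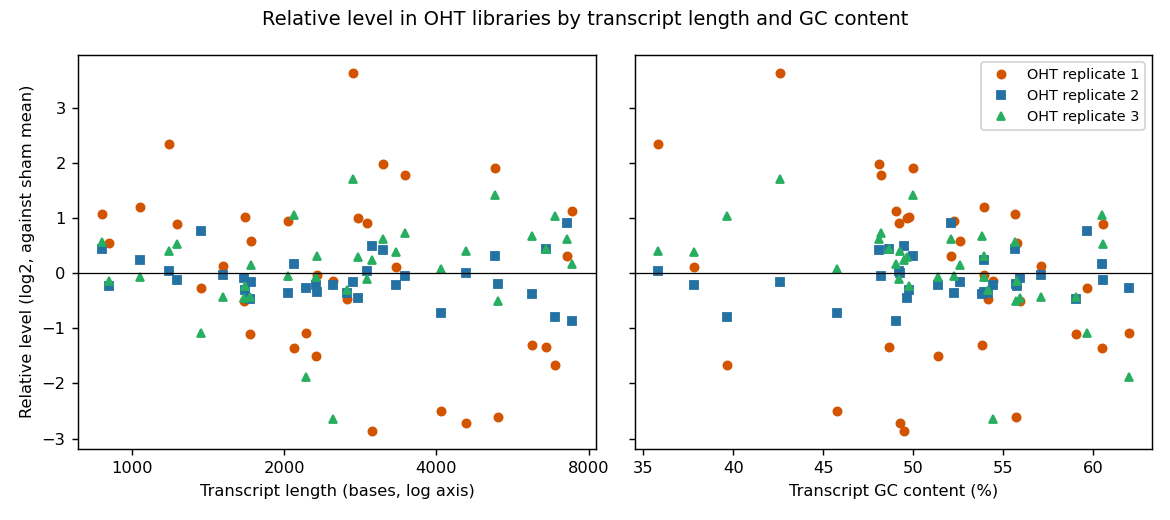
Relative level of each of the 34 genes in the 3 OHT libraries (log2, against the sham mean) plotted against the length (log axis) and GC content of its longest protein-coding transcript. OHT replicate 3 is lower at high GC, with a rho of -0.49, while OHT replicate 2 stays between -0.88 and 0.90.

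Of 24 further photoreceptor genes, 24 had a negative log2 difference, 0 passed limma's adjusted threshold, 16 had an unadjusted p under 0.05 (6.3% of all genes) and 4 were free of overlap (9.18% of all genes), with a median of -2.61. The 4 were Rp1l1, Ankrd33, Drd4 and Nxnl1, named after their values were seen. DESeq2 called 7 of the 24, all lower, against 1.41% of all genes. Summed, the 24 genes had a mean level of 916 ± 563 ppm over the sham libraries, against 198 ± 179 ppm over those of OHT (SD, n = 3 each).

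Cone genes were less one-sided in these libraries. Of the 9 genes on the cone list, 8 passed the filter, 5 of them with a negative and 3 with a positive log2 difference. The median of the 8 was -0.26. The 3 were Gngt2 (1.62, SE 0.44), Cngb3 (1.96, SE 1.99) and Pde6h (0.13, SE 0.66), named after their values were seen. Cngb3 was at 0 in sham replicate 3. Summed, the 9 cone genes were at 388, 248 and 159 ppm in sham replicates 1, 2 and 3. In OHT replicates 1, 2 and 3 they were at 348, 215 and 585 ppm. Sham replicate 1, lowest of the sham group for the 34 genes, was its highest for cone genes. Gngt2, the cone transducin gamma subunit, made up much of these sums. It was at 281, 165 and 280 ppm in OHT replicates 1, 2 and 3 and 158, 62.5 and 76.4 ppm in sham. It was chosen for this after its values were seen, and which cells its reads came from was not tested. Without Gngt2 the cone genes summed to 229, 186 and 82.4 ppm in sham and to 67.8, 49.5 and 304 ppm in OHT, so OHT replicates 1 and 2 were then below every sham library and OHT replicate 3 above. The difference between the lists was not tested.

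Summed astrocyte markers were high and low in nearly the same libraries as the photoreceptor genes. The 6 markers came to 412, 2506 and 2424 ppm in sham replicates 1, 2 and 3. In OHT replicates 1, 2 and 3 they came to 269, 275 and 600 ppm. The order of high and low libraries was that of the 34 genes but for the lowest pair, OHT replicates 1 and 2. That pair was in the same order too once Gnb1 was left out of the 34. Aldoc alone gave 398 of the 412 ppm of sham replicate 1, and without Aldoc the sum was 13.6, 634 and 1188 ppm in sham and 48.9, 20.2 and 99.9 ppm in OHT, with sham replicate 1 the lowest of all 6 libraries. Gfap, named after its values were seen, gave most of that remainder in sham replicates 2 and 3. As normalised read counts it was at 156, 22395 and 47682 in sham and 3091, 370 and 3142 in OHT. Of the 6 markers, Slc7a10 was at 0 in all 3 sham libraries and Pax2 at 0 in sham replicate 1 and in OHT replicates 1 and 2. Müller glia markers did not follow that order: sham replicate 2 was highest, at 8988 ppm, but sham replicate 3, at 3641 ppm, was below sham replicate 1 and OHT replicate 3. What part the makeup of the captured cells had in the photoreceptor difference was not tested.

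**Figure D5:**
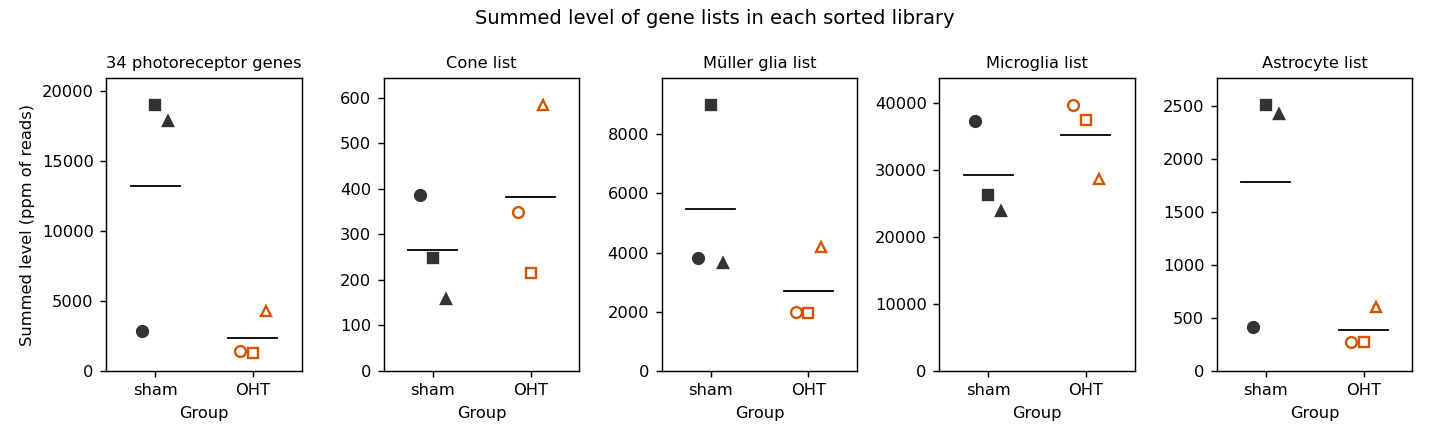
Summed level, in ppm of each library's reads, of the 34 photoreceptor genes and of 4 marker lists in each sham and OHT library (points, symbols as in the plot of values by library), with the group mean as a line and each axis from 0. Sham replicate 1 (filled circle) is low for photoreceptor and astrocyte genes and high for cone and microglia genes within its group.

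In the primary cultures these transcripts were at low levels apart from Gnb1. The 27 listed genes summed to 516, 712 and 850 ppm in culture replicates 1, 2 and 3, of which Gnb1 gave 492, 682 and 824 ppm. Without Gnb1 the sum was 24.0, 30.3 and 26.3 ppm, against 935 to 16914 ppm for the 33 genes other than Gnb1 in the sorted libraries. The culture table was normalised separately, so these levels are set side by side in ppm with no test. Gngt1, Rcvrn, Nrl, Nr2e3, Crx, Prph2 and Rbp3 were not listed for the cultures.

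Among the members listed, Rom1 was the next highest after Gnb1, at 8.98 ± 1.08 ppm (SD, n = 3), which is low beside its 163 to 1595 ppm in the sham libraries. Abca4 (3.23 ± 0.41 ppm), Reep6 (2.74 ± 1.28 ppm), Rdh12 (2.34 ± 0.45 ppm), Unc119 (2.32 ± 1.13 ppm), Guca1a (2.21 ± 0.39 ppm) and Prom1 (1.57 ± 0.40 ppm) followed. The remaining 19 members were below 1 ppm in each culture. Gnat1 was at 0.0151, 0.238 and 0.0652 ppm and Pde6a at 0.0151 ppm in culture replicate 1 and at 0 in replicates 2 and 3, where 3 reads are worth 0.0397 and 0.0391 ppm. Such floors cover counting error only.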

How the data were processed

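RNA of 9 libraries (3 sham, 3 OHT, 3 primary cultures) was amplified with a SMARTer v4 kit and sequenced as paired ends, per the labels' protocols. Base calling with bcl2fastq 2.20, trimming with Trim Galore 0.6.6, FastQC 0.11.9 and alignment with STAR 2.7.1a to mm39 are named in the submitters' processing notes. Which program counted reads, with which annotation, and which tool scaled them is not stated in the labels or headers. The deposited values are a normalized signal: as their spacing shows, gene counts divided by 1 factor for each library. Whole reads were recovered for 100% of values, within 0.05 reads, in all libraries but culture replicate 3, whose step is too near 1 to check.

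Sorted and culture tables were normalized separately, so nothing was tested across them. limma 3.58.1 (R 4.3.3) compared OHT with sham on log2(value + 1) for genes with a mean of at least 10, and p-values were adjusted over all genes by the Benjamini-Hochberg method (calls at under 0.05). edgeR 4.0.16 and DESeq2 1.42.0 on recovered reads, other pseudocounts, filters and scalings, a replicate block and leaving out each library were alternatives. The scripts were tested on simulated data. With 3 libraries a group, an exact permutation test cannot go below p = 0.1, so none is given. The kit does not mark strand, so overlapping and antisense genes cannot be told apart. The members and lists were chosen with earlier results of these data known. Every member is named, and genes of other lists are given as counts or sums, with some exceptions named after their values were seen. These are Gngt2, Cngb3, Pde6h, Aldoc, Gfap, Slc7a10, Pax2, Rp1l1, Ankrd33, Drd4 and Nxnl1.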

Additional observations from a re-analysis of the deposited data

How the results depend on the processing

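Of 510 log2 differences of the 34 genes under 15 alternative fits, 509 were below 0 and 1 was above, Cnga1 at 0.52 without OHT replicate 2; with 1 library left out it ran from -1.75 (without sham replicate 1) to 0.52. The count of all genes called was 0 by limma, 250 by DESeq2 and 2 with a replicate block, and 0 to 17 when 1 library was left out, with 12 without sham replicate 1 and 17 without sham replicate 3. The count of the 34 called was 0 by limma, 20 by DESeq2 and 1 (Rbp3) with a replicate block, and 0 to 7 with 1 library left out, 7 of them without sham replicate 1. DESeq2 called 7 of the 24 other photoreceptor genes, against 0 by limma. The cause was not tested. The labels name no pairing of the libraries, and the main fit left them unpaired. Deviations of same-numbered libraries correlated at 0.08, -0.02 and -0.05, which cannot settle whether they were handled together. The log2 ratio of the summed share ran from -3.31 to -2.16 with 1 library left out. The number of libraries, 3 a group, limits the precision.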
